A study of Mus musculus with 40 samples.

Results

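Myelin and mature oligodendrocyte transcripts were followed through aging, loss of Ttpa and vitamin E supply in the mouse cerebral cortex and cerebellum. The genes were Mbp, Mobp, Mag, Mog, Cnp, Cldn11, Ugt8a and Mal, taken by the gene name that the array files give each probe. These 8 genes had 12 of the 55681 probes on the array, which carried 36406 gene names in all. Mbp and Mobp had 3 probes each and the other genes 1, and the brightest probe stood for a gene. All 12 probes were well above background on 40 of 40 arrays and none was saturated.

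Total RNA of C57Bl/6 mice had been hybridized with Cy3 to 40 one-colour arrays, 4 arrays in each of 10 groups, 1 mouse an array per the study's description. Each region had the same 5 groups. Wild-type mice on normal diet (36 mg of α-tocopherol per kg) were taken at 2 and at 29 months, and the others only at 29 months: wild-type mice on the deficient diet, Ttpa-/- mice on the deficient diet, and Ttpa-/- mice on the supplemented diet (600 mg per kg). Ttpa encodes α-tocopherol transfer protein, which passes α-tocopherol from the liver into the circulation, and no restriction of the knockout to a cell type was given. Young Ttpa-/- mice, Ttpa-/- mice on normal diet and wild-type mice on supplemented diet were not among the groups, so that deficient Ttpa-/- and normally fed wild-type mice differed in genotype and diet at once. The samples were whole tissue, not sorted oligodendrocytes.

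Oligodendrocytes wrap axons of the central nervous system in many layers of membrane. Basic proteins such as MBP and MOBP hold the cytoplasmic faces of these layers together, while MAG, MOG, CNPase and claudin 11 sit at the axonal side, the outer surface, the cytoplasmic channels and the tight junctions of the sheath. Myelin membrane is rich in galactosylceramide, cholesterol and very long chain fatty acids, and SOX10 and MYRF are transcription factors known to drive the myelin genes.

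The promoters of Mobp, Cnp and Mag are shown because these genes passed a test below and held more than 1 match to the words searched for SOX and MYRF. RefSeq (GRCm38.p6) gave promoters for 7 of the 8 genes, read here as the 250 bases before the first transcript start, 5′ to 3′ on the strand of the gene. Capitals mark ACAAAG or ACAATG (the letters searched for SOX factors) and CTGGCAC or CTGGTAC (the letters searched for MYRF) on either strand, so that CTTTGT is ACAAAG read on the opposite strand. The positions are chr9:120149492-120149741 (plus strand) for Mobp, chr11:100574689-100574938 (plus strand) for Cnp and chr7:30914923-30915172 (minus strand) for Mag.
Mobp: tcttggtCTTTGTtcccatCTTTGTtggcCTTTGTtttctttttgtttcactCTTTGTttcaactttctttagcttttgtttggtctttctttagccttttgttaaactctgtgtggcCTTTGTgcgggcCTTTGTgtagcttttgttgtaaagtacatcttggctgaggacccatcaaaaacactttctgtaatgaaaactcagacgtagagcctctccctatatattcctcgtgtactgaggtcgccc
Cnp: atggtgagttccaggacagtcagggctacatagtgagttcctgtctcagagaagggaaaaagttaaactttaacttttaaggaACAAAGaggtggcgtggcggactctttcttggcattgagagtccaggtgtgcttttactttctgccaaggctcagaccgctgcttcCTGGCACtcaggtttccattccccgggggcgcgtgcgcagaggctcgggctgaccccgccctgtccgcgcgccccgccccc
Mag: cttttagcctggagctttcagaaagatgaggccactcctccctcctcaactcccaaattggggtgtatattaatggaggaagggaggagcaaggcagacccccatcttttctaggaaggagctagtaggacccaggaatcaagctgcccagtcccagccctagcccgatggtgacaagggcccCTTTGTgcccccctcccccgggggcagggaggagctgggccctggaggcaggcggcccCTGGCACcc

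The Mobp promoter held 6 matches to ACAAAG, all on the opposite strand. Cnp held 1 match to ACAAAG and 1 to CTGGCAC, and so did Mag, where CTGGCAC ended just before the start. Mog held 1 match to CTGGTAC, and the windows of Cldn11, Ugt8a and Mal held none of the 4 words. The SOX letters thus occurred in 3 of 7 promoters against 25.2% of 32851 promoters of this length, and the MYRF letters in 3 of 7 against 5.93%. The SOX words were ACAAAG (16.5% of all promoters) and ACAATG, the MYRF words CTGGCAC (4.19%) and CTGGTAC (1.83%), and no matches overlapped in the promoters shown. A match is a description of the letters, not a binding site or a cause of the values below.

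The arrays read these genes with 60-base probes placed on mm9 at chr9:120085150-120085209 for Mobp, chr11:100442617-100442676 for Cnp, chr7:31684202-31684261 for Mag, chr17:37148277-37148336 for Mog, chr3:31062922-31062981 for Cldn11, chr3:125568995-125569054 for Ugt8a and chr2:127458976-127459035 for Mal. The array annotation assigns each to transcripts of its gene, and whether it lies in a coding exon or a UTR was not determined. Values are log2 levels, the log2 of the processed signal minus the log2 of the 75th percentile of the array, and a difference is between the means of 2 groups of 4 arrays with its standard error (SE). A gene was called up- or down-regulated when limma with Benjamini-Hochberg adjustment over all probes tested gave an adjusted p below 0.05. The level of one probe was not set against that of another.

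The 75th percentile was 365 to 925 units and 51.4 to 61.4% of probes were well above background, and the precision was limited by the 4 arrays of a group. The readable Ttpa probe cleared background in every wild-type cerebellum (4 of 4 per group), on 0 of 4 arrays of deficient Ttpa-/- and on 1 of 4 of supplemented Ttpa-/- mice. In cortex it was above background on 1 of 20 arrays, which leaves the labels of the cortex unchecked by this gene. The other Ttpa probe cleared background on 1 of 40 arrays, replicate 2 of deficient Ttpa-/- cerebellum. There it read -2.67 where the other arrays of the group had -6.58 to -6.31. The 5 cortical markers summed to 66.0 to 85.2 times the 75th percentile in cortex and to 1.78 to 3.57 in cerebellum, and 6 cerebellar markers to 3.97 to 6.51 and 467 to 653, so that no array went against its labelled region. The 40 arrays were on 5 slides with 2 whole groups each. Young and aged wild-type cortex shared a slide, as did normally fed and deficient wild-type cerebellum, and deficient and supplemented Ttpa-/- cerebellum. In every other comparison slide and group cannot be told apart.

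In the cortex the lowest group mean belonged to deficient Ttpa-/- mice for Mbp, Mag, Mobp, Cnp, Cldn11 and Mal and to deficient wild-type mice for Mog and Ugt8a. In the cerebellum it belonged to deficient wild-type mice for Mog, Mag, Cnp, Cldn11 and Ugt8a, to deficient Ttpa-/- mice for Mbp and Mobp, and to supplemented Ttpa-/- mice for Mal. Along the order of the 5 group means, neighbouring groups overlapped in their arrays for every gene and region apart from 1 pair, the lowest groups for Mal in cortex. The SD between arrays of a group was widest for Ugt8a in deficient wild-type cerebellum (0.93) and narrowest for Mobp in deficient wild-type cortex (0.08).

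**Figure D1:**
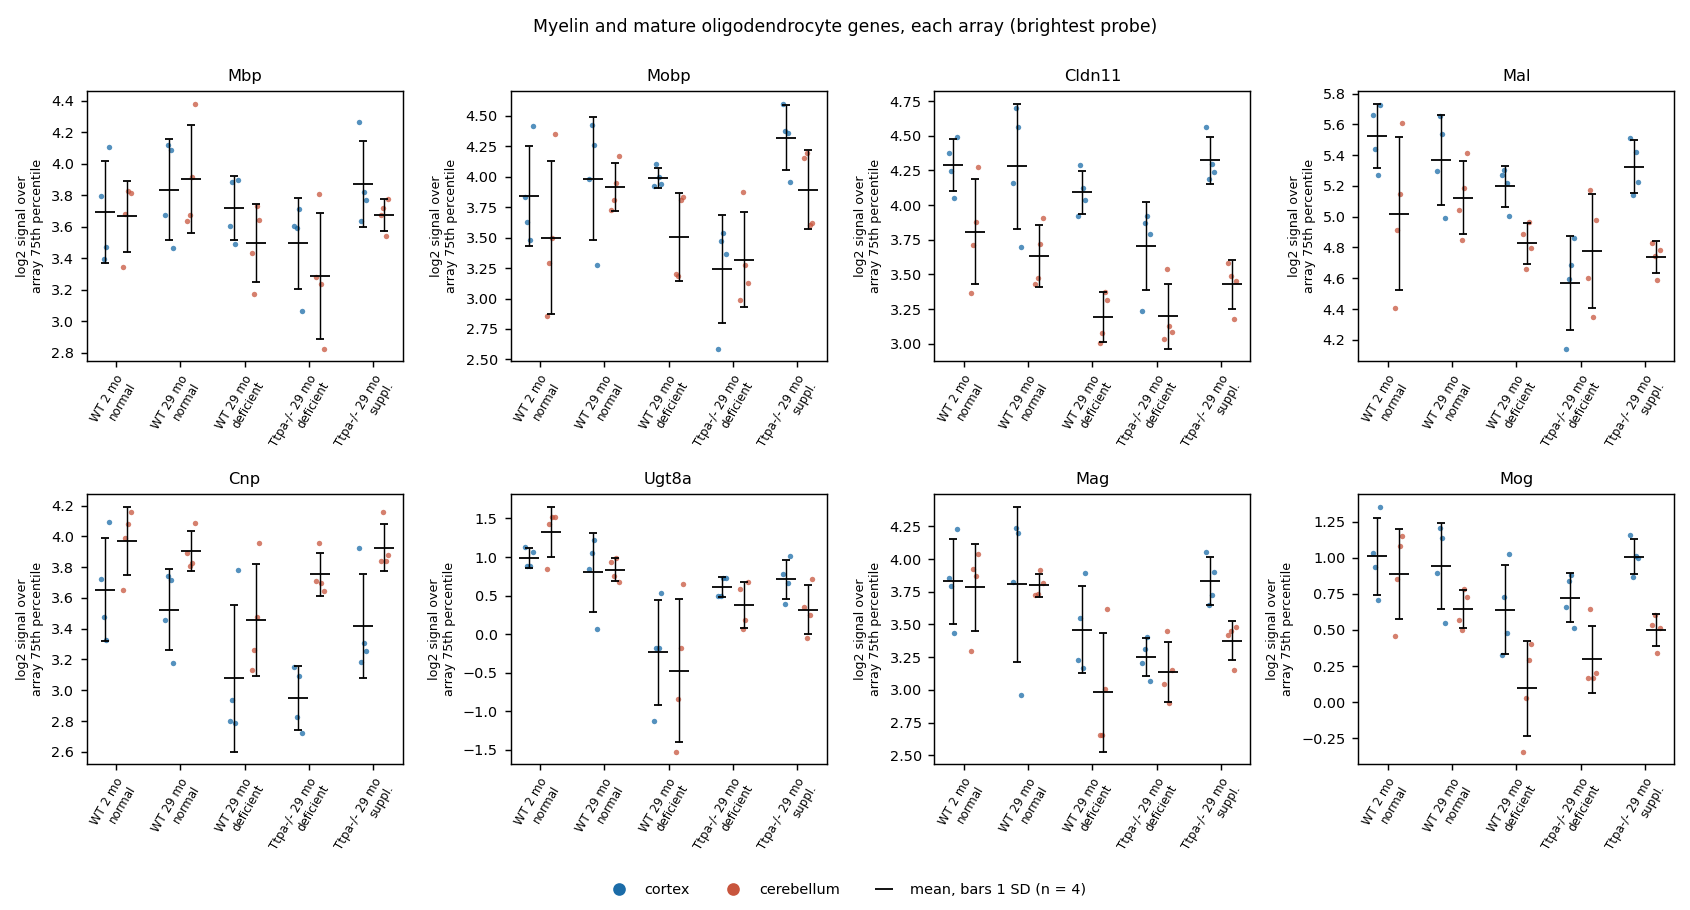
Log2 level of each of the 8 genes (y axis, log2 signal over the 75th percentile of the array) in the 5 conditions (x axis), with 1 point per array and the mean ± 1 SD, cortex and cerebellum in separate colours. In cortex the 4 deficient Ttpa-/- arrays reached at most 4.86 for Mal, below every array of the other cortical groups, while for Mbp the groups overlapped.

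The genes varied together between arrays of the same group. Replicate 4 of the aged wild-type cortex was the lowest array of its group for 8 of 8 genes, and so was replicate 1 of the young wild-type cerebellum. In 5 of 10 groups a single array was the lowest for at least 7 of the 8 genes, and in 5 of 10 a single array was the highest for at least 7. After removal of the group means, the 28 pairs of genes correlated over the 40 arrays with r from 0.23 (Ugt8a and Mal) to 0.92 (Mobp and Cldn11) and a median of 0.69, which describes arrays that share their RNA, hybridization and scaling. The 8 genes are therefore not 8 independent readings of a mouse.

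**Figure D2:**
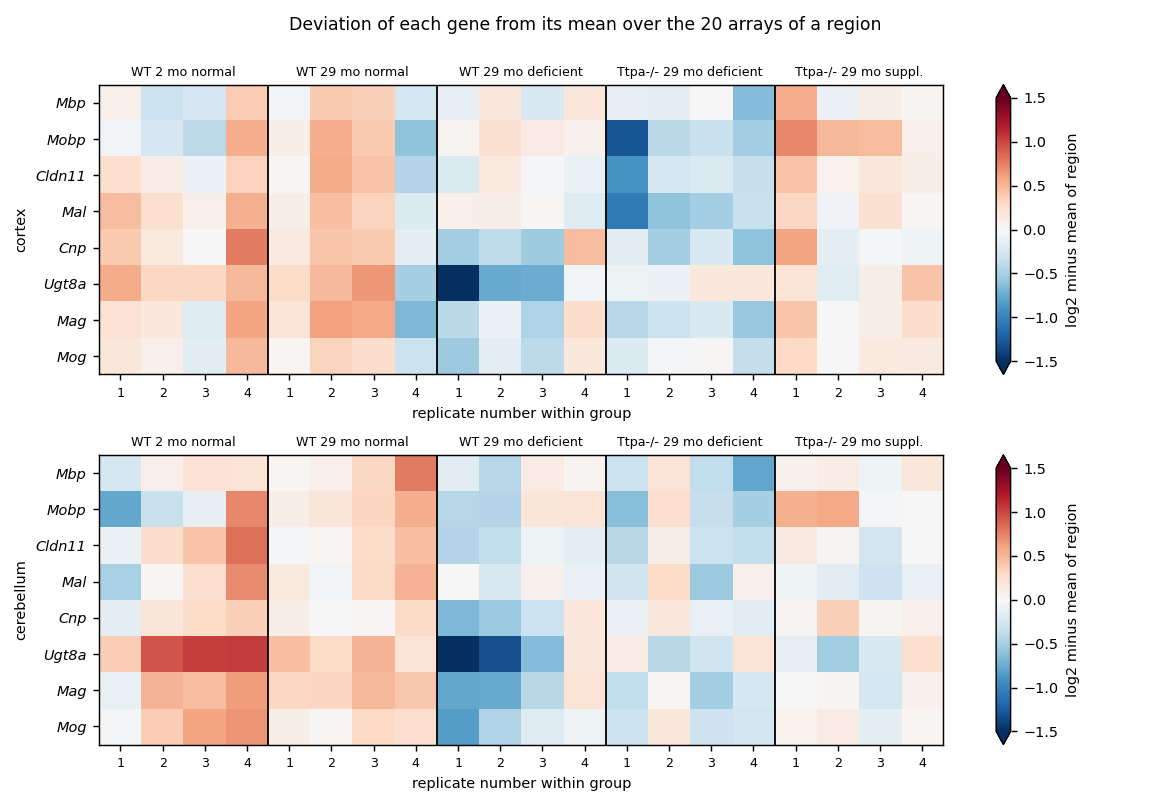
Deviation of each gene (rows) on each array (columns, 4 replicates in each of 5 groups) from its mean over the 20 arrays of a region, in log2 units, cortex above and cerebellum below. Whole columns share a colour, such as replicate 4 of the aged wild-type cortex, the lowest array of its group for 8 of 8 genes.

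Deficient Ttpa-/- mice were compared with aged wild-type mice on normal diet to ask how the genes behaved where both the transfer protein and dietary α-tocopherol were lacking. In the cortex Mal, Cldn11 and Cnp were down-regulated, 3 of 8 genes, where 9.49% of the 28913 probes tested fell. Mal, a raft proteolipid that takes part in sorting membrane to myelin, fell the most. In whole tissue, fewer oligodendrocytes and less of these RNAs per oligodendrocyte cannot be told apart.

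The Mal level was 5.30, 5.65, 5.54 and 4.99 on the 4 arrays of aged wild-type cortex and 4.14, 4.59, 4.69 and 4.86 in deficient Ttpa-/- cortex. No array of one group reached the other, and the log2 difference of -0.80 (SE 0.19, adjusted p = 0.00385) amounts to a 1.74-fold lower mean with a 95% interval of -1.19 to -0.41 on the log2 scale. Cnp, which encodes the cyclic nucleotide phosphodiesterase of the non-compacted channels, read 3.46, 3.74, 3.72 and 3.18 in aged wild-type and 3.15, 2.83, 3.09 and 2.72 in deficient Ttpa-/- cortex. These groups also lay apart, though replicate 4 of the wild-type group was close to the highest Ttpa-/- array, and the difference was -0.57 (SE 0.20, adjusted p = 0.0401, 1.49-fold). Cldn11 levels, those of the tight junction claudin of myelin, were 4.16, 4.70, 4.57 and 3.70 in the wild-type and 3.24, 3.87, 3.92 and 3.79 in the Ttpa-/- cortex. Here replicate 4 of the wild-type group lay among the Ttpa-/- arrays, and the difference was -0.57 (SE 0.19, adjusted p = 0.0289, 1.49-fold).

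Mobp, a basic protein of compact myelin, missed the threshold with 3.98, 4.42, 4.26 and 3.27 against 2.59, 3.47, 3.54 and 3.36 (difference -0.74, SE 0.27, adjusted p = 0.0508). Mag, the adhesion molecule facing the axon, read 3.83, 4.24, 4.20 and 2.96 against 3.21, 3.32, 3.41 and 3.07 (difference -0.56, SE 0.22, adjusted p = 0.0761). In both genes 3 wild-type arrays were above all Ttpa-/- arrays but for replicate 4, which was below 3 of them for Mobp and below all of them for Mag. The differences of Mbp (-0.34, adjusted p = 0.237), Mog (-0.22, adjusted p = 0.392) and Ugt8a (-0.19, adjusted p = 0.72) were smaller. All 8 differences were below 0, where 53.4% of all probes were, and their median was -0.56 against -0.02 over all probes tested. The arrays of the groups did not overlap for 2 of 8 genes, Cnp and Mal, where 11.5% of probes did so in this direction.

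Cnp was lost in 7 of 8 fits without 1 array and Cldn11 in 3 of 8, while Mal passed in all 8. Without replicate 4 of the aged wild-type cortex 5 genes passed (Mag, Mobp, Cnp, Cldn11 and Mal) and the median difference was -0.73, and without replicate 2 or 3 of that group, or without replicate 1 of deficient Ttpa-/- cortex, only Mal passed, while with arrays scaled on their medians none did.

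The same deficient Ttpa-/- arrays were set against Ttpa-/- mice on the supplemented diet, which compares diets within the genotype. Mobp, Mal and Cldn11 were down-regulated in the deficient cortex, 3 of 8 genes, against 6.75% of the probes tested that fell. Mobp differed by the most on its brightest probe. Its level was 4.60, 4.37, 4.35 and 3.96 in supplemented and 2.59, 3.47, 3.54 and 3.36 in deficient cortex, so that all supplemented arrays were higher. The deficient minus supplemented difference was -1.08 (SE 0.27, adjusted p = 0.00803, 2.11-fold), with a 95% interval of -1.63 to -0.53, and the mean of the 3 Mobp probes differed by -0.69 (adjusted p = 0.0283). Supplemented mice read 5.51, 5.14, 5.42 and 5.22 for Mal, all above the deficient arrays given above, and the difference was -0.75 (SE 0.19, adjusted p = 0.00841, 1.69-fold). For Cldn11 they read 4.57, 4.19, 4.30 and 4.24, again above every deficient array, and the difference was -0.62 (SE 0.19, adjusted p = 0.0245, 1.53-fold). Mag (-0.58, adjusted p = 0.0758) and Cnp (-0.47, adjusted p = 0.112) had groups that lay apart but missed the threshold. Groups lay apart in this direction for 5 of 8 genes, against 9.36% of probes.

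Mbp (-0.38, adjusted p = 0.209), Mog (-0.29, adjusted p = 0.281) and Ugt8a (-0.10, adjusted p = 0.873) did not pass. The differences of all 8 genes were below 0 (53% of probes), with a median of -0.53, although Ugt8a was at 0.01 when arrays were scaled on their medians. Median scaling left no gene past the threshold, and so did leaving out replicate 1 of the deficient Ttpa-/- cortex, with adjusted p = 0.0606 for Mobp, 0.149 for Cldn11 and 0.0611 for Mal. Cldn11 was lost as well without replicate 1 or 3 of the supplemented group.

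**Figure D3:**
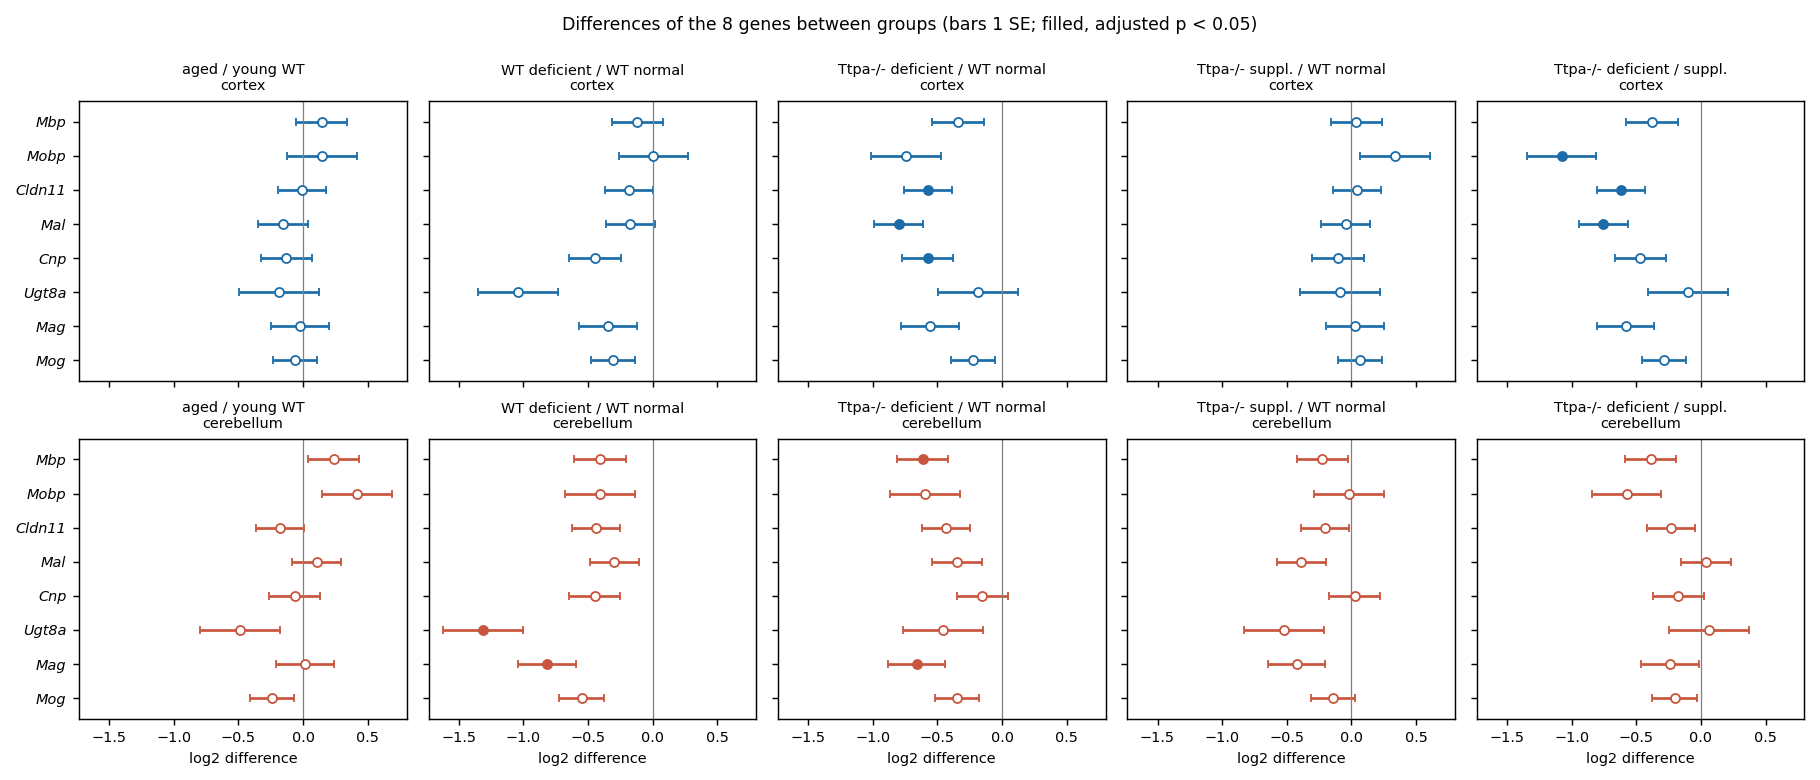
Log2 difference of each of the 8 genes (y axis) in 10 comparisons (panels), with bars of 1 SE and filled points where the limma adjusted p was below 0.05. The points of deficient Ttpa-/- cortex against either aged wild-type or supplemented Ttpa-/- cortex are all left of 0, with medians of -0.56 and -0.53. Those of aged against young wild-type cortex lie about 0 with a median of -0.04.

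In the cerebellum, deficient Ttpa-/- mice differed from normally fed aged wild-type mice in Mbp and Mag, which were down-regulated, 2 of 8 genes, where 6.37% of the 30604 probes tested fell. Mbp, the major basic protein of compact myelin, read 3.63, 3.68, 3.92 and 4.38 in wild-type and 3.28, 3.81, 3.24 and 2.83 in deficient Ttpa-/- cerebellum. Replicate 2 of the Ttpa-/- group overlapped the wild-type arrays, and the difference was -0.61 (SE 0.20, adjusted p = 0.0368, 1.53-fold). For the mean of the 3 Mbp probes it was -0.28 and missed the threshold (adjusted p = 0.0538). Mag levels were 3.73, 3.74, 3.92 and 3.82 against 3.05, 3.45, 2.90 and 3.15 without overlap, with a difference of -0.66 (SE 0.22, adjusted p = 0.0453, 1.58-fold). Mag was the only gene of the 8 whose groups lay apart, against 7.77% of probes in this direction.

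The other 6 differences ranged from -0.60 for Mobp (adjusted p = 0.144) to -0.15 for Cnp (adjusted p = 0.676), so that all 8 were below 0 (53.8% of probes), with a median of -0.45 against -0.02. Between 0 and 2 genes passed when 1 array was left out. Mag was lost in 7 of 8 such fits and Mbp in 5 of 8, and none passed with median scaling or when dim probes were tested as well. Against supplemented Ttpa-/- mice, on the same slide, no gene of the deficient cerebellum passed in limma (1 at an unadjusted p below 0.05, Mobp, and 0 by a t-test on each gene), where 0.764% of probes did in either direction, and the median was -0.22.

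The effect of the region was tested by an interaction term, the cerebellar minus the cortical difference. None of the 8 genes passed for deficient Ttpa-/- against normally fed wild-type mice (7.04% of probes, 0 genes at an unadjusted p below 0.05) or for the deficient against the supplemented diet in Ttpa-/- mice (0.0567% of probes). In the latter Mal alone was below 0.05 unadjusted, with an interaction of 0.79 (SE 0.27, adjusted p = 0.144). Between the diets of Ttpa-/- mice Mobp, Cldn11 and Mal thus passed in cortex and no gene in cerebellum, each on its brightest probe. The cerebellar groups of this diet comparison shared a slide and the cortical groups did not, so that slide and diet cannot be told apart in cortex. Against normally fed wild-type mice Cnp, Cldn11 and Mal passed in cortex only, and Mbp and Mag in cerebellum only. In both comparisons the difference between the regions did not pass.

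Wild-type mice on the deficient diet, which keep the transfer protein, were compared with those on normal diet. In the cerebellum, where both groups were on a single slide, Ugt8a and Mag were down-regulated, 2 of 8 genes, where 3.38% of the 30990 probes tested fell. Ugt8a encodes the galactosyltransferase that makes the galactosylceramide of myelin. Its level was 0.93, 0.75, 0.99 and 0.68 on normal and -1.52, -0.84, -0.17 and 0.65 on deficient diet. All deficient arrays were lower, replicate 4 by little, and the spread among them (SD 0.93) was wider than on normal diet (SD 0.15). The difference was -1.31 (SE 0.31, adjusted p = 0.0177, 2.48-fold), with a 95% interval of -1.94 to -0.68.

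Mag levels were 3.73, 3.74, 3.92 and 3.82 on normal and 2.65, 2.66, 3.00 and 3.62 on deficient diet, apart from each other by a difference of -0.82 (SE 0.22, adjusted p = 0.0322, 1.76-fold). Mog, which encodes a protein of the outermost myelin surface, read 0.57, 0.50, 0.78 and 0.73 against -0.34, 0.03, 0.29 and 0.40 and just missed the threshold (difference -0.55, SE 0.17, adjusted p = 0.0569). Cldn11 was 3.43, 3.48, 3.72 and 3.91 against 3.01, 3.08, 3.37 and 3.32 (difference -0.44, adjusted p = 0.164). In 4 of 8 genes (Mog, Mag, Cldn11 and Ugt8a) every deficient array was below every normal array, against 9.94% of probes. The differences of all 8 were below 0 (51.9% of probes), from -0.30 for Mal to -1.31, with a median of -0.44.

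These calls also depended on single arrays. Without replicate 3 or 4 of the deficient group Mog passed as well, and without replicate 1 or 2 of that group, or replicate 1 or 3 of the normal group, none passed, as when the pair of groups was fitted without the other arrays. Ugt8a alone passed without replicate 4 of the normal group.

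In the cortex none of the 8 genes passed in limma between deficient and normally fed wild-type mice, where 0.34% of probes did in either direction. Cnp and Ugt8a were below an unadjusted p of 0.05 in limma and Ugt8a by the t-test. Ugt8a read 0.85, 1.06, 1.23 and 0.07 on normal and -1.12, -0.18, -0.17 and 0.53 on deficient diet, with a difference of -1.04 (SE 0.31, adjusted p = 0.102). Replicate 4 of each group lay within the other group. Without replicate 4 of the deficient group Ugt8a and Cnp passed, and without replicate 4 of the normal group Ugt8a did. The median of the 8 differences was -0.25, and 7 of 8 were below 0 (48.6% of probes). Without replicate 4 of the normal group the median was -0.41 and without replicate 2 it was -0.14. The interaction with the region passed for no gene, at 0.0126% of probes.

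Supplemented Ttpa-/- mice were set against normally fed wild-type mice to ask what remained with added α-tocopherol. In cortex the groups overlapped for every gene. None of the 8 genes passed there, where 0.212% of probes did, and none was below an unadjusted p of 0.05. The differences ran from -0.10 for Cnp to 0.34 for Mobp, with a median of 0.03 that turned to -0.16 without replicate 4 of the wild-type group. In the cerebellum no gene passed in limma either, against 14.6% of probes, and none was below 0.05 unadjusted, while the t-test counted 3 unadjusted and 1, Mag, after adjustment. There 7 of 8 differences were below 0 (52.2% of probes) and the median was -0.22. Mag was 3.42, 3.45, 3.15 and 3.48 and Mal 4.83, 4.74, 4.59 and 4.79 in supplemented Ttpa-/- cerebellum, below every wild-type array, which read 5.04, 4.85, 5.18 and 5.42 for Mal. These were 2 of 8 genes to lie lower without overlap, against 12% of probes. The differences of -0.42 for Mag (adjusted p = 0.209) and -0.39 for Mal (adjusted p = 0.178) missed the threshold. A p above the threshold does not show equal levels, and the 95% interval for Mal in cortex, -0.43 to 0.34 on the log2 scale, still holds changes in either direction.

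Deficient Ttpa-/- mice were also compared with deficient wild-type mice, which differ in genotype on the same diet. In cortex only Mal was down-regulated, 1 of 8 genes, where 7.41% of probes fell. Deficient wild-type mice read 5.27, 5.30 and 5.22 for Mal, with replicate 4 lower at 5.0, and all lay above the 4 deficient Ttpa-/- arrays, and the difference was -0.63 (SE 0.19, adjusted p = 0.0278, 1.54-fold). Mobp also lay apart, with 3.92, 4.11, 4.00 and 3.94 in the wild-type group, and missed the threshold (difference -0.75, SE 0.27, adjusted p = 0.0618). These were the 2 of 8 genes that lay apart in this direction, against 9.48% of probes. Ugt8a was on the other side, with a mean higher in deficient Ttpa-/- than in deficient wild-type cortex by 0.85 (SE 0.31, adjusted p = 0.0644), and by 0.85 in cerebellum (SE 0.31, adjusted p = 0.0651).

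Mal in this comparison was lost in 5 of 8 fits without 1 array, with none passing without replicate 1, 2 or 3 of deficient wild-type or replicate 1 or 2 of deficient Ttpa-/- cortex, and Ugt8a and Mal passing without replicate 4 of deficient wild-type cortex. With the replicate number as a block, Ugt8a and Mal passed in cortex. In cerebellum none of the 8 genes passed in limma, against 12.8% of probes, 1 (Ugt8a) was below 0.05 unadjusted and 0 by the t-test, while Ugt8a passed with the replicate block, with median scaling or quantile normalization, and without replicate 4 of the deficient wild-type group. The comparisons with normally fed wild-type mice share 4 control arrays in each region, and the 3 comparisons of deficient Ttpa-/- mice share those 4 arrays, so that their values are not independent of each other.

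Normal aging, from 2 to 29 months in wild-type mice on normal diet, moved none of the 8 genes past the threshold on its brightest probe. Another Mbp probe rose in cortex, as described below, and Mbp passed there by the mean of its probes. In cortex, on a single slide, limma called 0 of 8, also at an unadjusted p below 0.05, and the t-test 0, where 4.15% of probes passed. Differences were within -0.19 to 0.15, and the median was -0.04 against -0.03 over all probes. The sign of this median rested on single arrays, since it was 0.13 without replicate 4 of the aged and 0.05 without replicate 4 of the young group, and without the former Mobp differed by 0.38, Mbp by 0.27 and Mag by 0.26. In cerebellum limma called 0 of 8, also unadjusted, against 11% of probes, and the t-test 1 unadjusted (Ugt8a). The differences ran from -0.49 for Ugt8a (0.84, 1.43, 1.52 and 1.52 at 2 months against 0.93, 0.75, 0.99 and 0.68 at 29 months, adjusted p = 0.381) to 0.42 for Mobp (adjusted p = 0.4). The interaction of aging with region passed for no gene on its brightest probe (1.83% of probes).

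In normally fed wild-type mice the regions were compared at both ages. Cldn11 was lower in cerebellum than in cortex at 2 months (difference -0.48, SE 0.19, adjusted p = 0.0245) and at 29 months (-0.65, SE 0.19, adjusted p = 0.00366), and Mal was lower at 2 months (-0.51, SE 0.19, adjusted p = 0.0212). These were 2 of 8 genes where 32.7% of probes were lower, and 1 of 8 where 27.9% were. At 2 months none passed without replicate 1 or 4 of the cortical or replicate 1 or 2 of the cerebellar group, and 3 passed without cerebellar replicate 4 (Mobp as well). At 29 months Mog passed beside Cldn11 without cortical replicate 4, and the median of the 8 differences moved from -0.04 to -0.30.

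The 3 Mbp probes did not move together. The gene gives rise to the classic transcripts of oligodendrocytes and to golli transcripts found also in other cells. The array annotation assigns 4 transcripts to the brightest probe (A_52_P329451), 1 to A_52_P604195 and 2 to A_55_P1992160, and which kinds they read was not determined. In aging cortex A_52_P604195 rose from 3.65, 3.54, 3.56 and 3.82 to 4.23, 4.30, 4.19 and 4.16, without overlap (difference 0.58, SE 0.09, adjusted p = 9.06e-05, 1.49-fold), while 14% of all probes lay apart in either direction. In aging cerebellum it read 2.87, 3.01, 3.02 and 3.22 against 2.91, 2.92, 2.90 and 3.07, and the regions differed by an interaction of -0.66 (SE 0.13, adjusted p = 0.00321). Probe A_55_P1992160 was lower in deficient than in supplemented Ttpa-/- cerebellum, -2.63, -2.24, -2.44 and -2.70 against -1.67, -2.24, -2.05 and -1.89 (difference -0.54, SE 0.12, adjusted p = 0.0239, 1.45-fold). In cortex the order was turned, with -0.33, -0.53, -0.32 and -0.47 against -0.70, -0.80, -0.68 and -0.74, and the interaction was -0.86 (SE 0.17, adjusted p = 0.0432). It was also lower in deficient Ttpa-/- than in deficient wild-type cerebellum (difference -0.52, adjusted p = 0.00491). Both of these probes were lower in cerebellum than in cortex at 29 months, by -1.27 for A_52_P604195 (adjusted p = 1.09e-13) and -1.60 for A_55_P1992160 (adjusted p = 5.04e-13), and the brightest probe was not (0.07, adjusted p = 0.795).

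Of the other Mobp probes, A_51_P291224 passed where the brightest did not. It was lower in deficient Ttpa-/- than in normally fed wild-type mice, with 1.81, 2.37, 2.50 and 1.82 against 2.64, 3.11, 3.08 and 2.12 in cortex (difference -0.61, SE 0.20, adjusted p = 0.0278, 1.53-fold). In cerebellum its levels were 1.41, 2.13, 1.62 and 1.06 against 2.26, 2.23, 2.47 and 2.58 without overlap (difference -0.83, SE 0.20, adjusted p = 0.0053, 1.78-fold). It was lower in deficient than in supplemented Ttpa-/- cortex as well (difference -0.63, adjusted p = 0.0313). The dim probe A_55_P1958793 passed in no comparison.

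**Figure D4:**
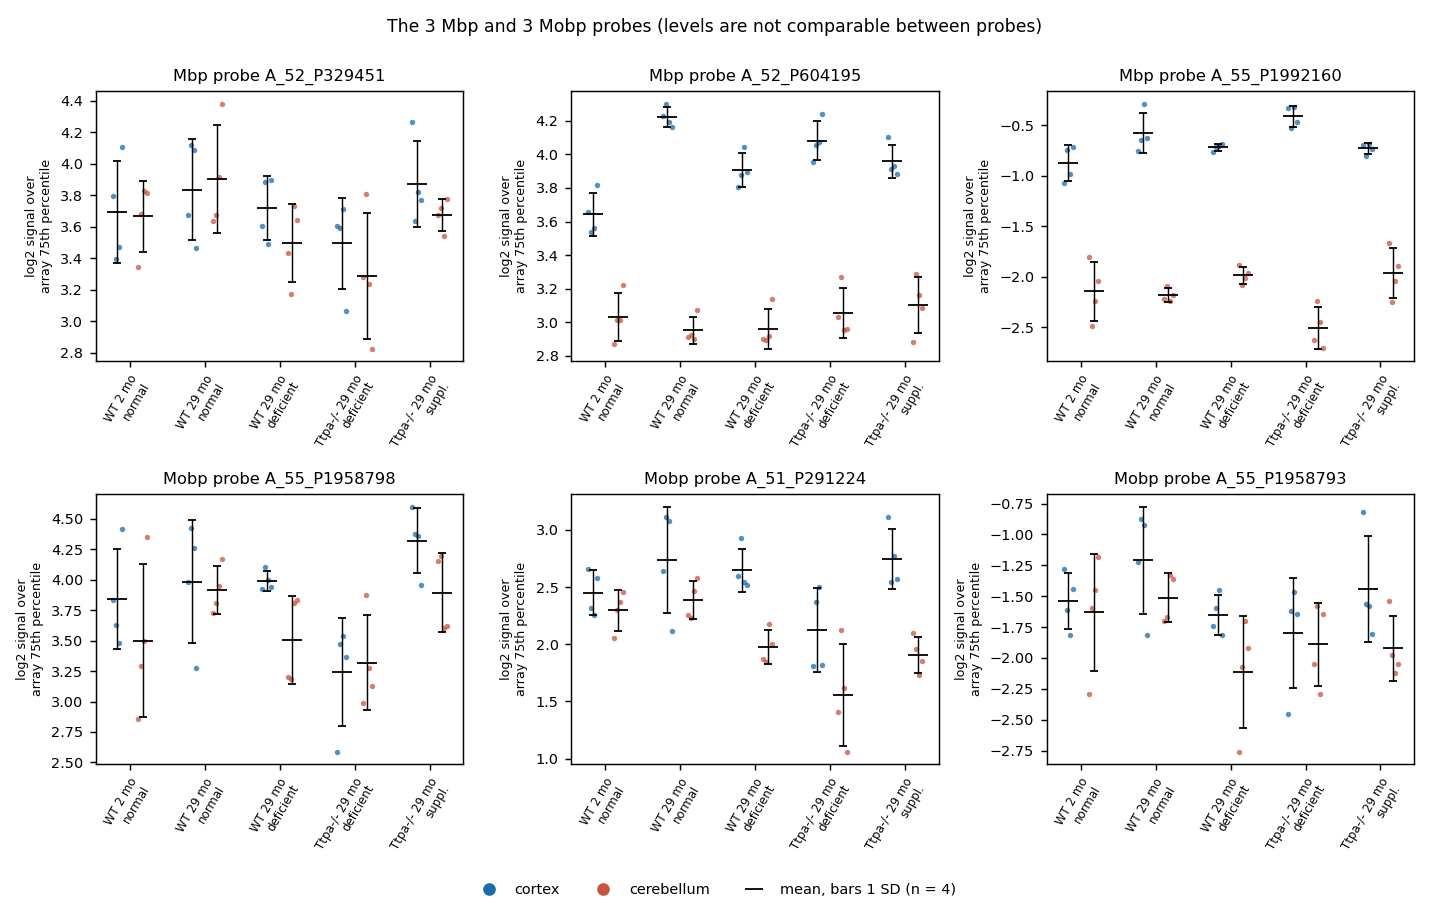
Log2 level of the 3 Mbp and the 3 Mobp probes (y axis) in the 5 conditions (x axis), 1 point per array with mean ± 1 SD, cortex and cerebellum in separate colours, levels not comparable between probes. Mbp probe A_52_P604195 separates young from aged cortex by 0.58, and the brightest Mbp probe does not.

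Genes of the same sheath and cell were read from a list of 20 others, of which 19 were measured and tested. In deficient Ttpa-/- against normally fed wild-type cortex 5 of 19 were down-regulated (9.49% of all probes tested) and 0 up-regulated (9.46%), with a median of -0.45, among them Opalin, an oligodendrocyte membrane glycoprotein (-1.16, adjusted p = 0.0342), the protease Adamts4 (-0.72, adjusted p = 0.00865) and Trf, the transferrin that oligodendrocytes secrete (-0.70, adjusted p = 0.0299). In cerebellum 3 of 19 were down-regulated (6.37% of probes), namely Opalin (-1.46, adjusted p = 0.0117), the plasmolipin gene Pllp (-0.84, adjusted p = 0.0318) and the nodal link protein Hapln2 (-0.51, adjusted p = 0.0338), with a median of -0.30. Against supplemented Ttpa-/- cortex 6 of 19 were lower (6.75% of probes), including Opalin (-1.34, adjusted p = 0.0201) and the tetraspanin Tspan2 (-0.95, adjusted p = 0.000426), with a median of -0.48, and in the cerebellar diet comparison of Ttpa-/- mice 0 of 19. In wild-type cerebellum on deficient diet 7 of 19 were down-regulated (3.38% of probes), among them Opalin (-1.39, adjusted p = 0.037) and Pllp (-1.03, adjusted p = 0.0251), with a median of -0.53. In cortex on that diet 0 of 19 passed and 18 of 19 were below 0 (48.6% of probes). With aging, 3 of 19 were up-regulated in cortex (2.76% of probes), the kallikrein Klk6 (2.15, adjusted p = 0.00977), Hapln2 (1.29, adjusted p = 2.51e-06) and Pmp22 (0.44, adjusted p = 0.0301). In aging cerebellum 1 of 19 rose, Hapln2 (0.63, adjusted p = 0.00844), a share near the 6.93% of all probes.

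Of 14 enzymes of myelin lipid synthesis, 5 were down-regulated (9.49% of probes) and 0 up-regulated in deficient Ttpa-/- against normally fed wild-type cortex, with a median of -0.23. The largest were the fatty acid elongases Elovl1 (-0.54, adjusted p = 0.00155) and Elovl7 (-0.52, adjusted p = 0.0302) and the squalene epoxidase Sqle (-0.35, adjusted p = 0.0192). In cerebellum 1 of 14 fell, a share near the 6.37% of all probes, and this was the squalene synthase Fdft1 (-0.55, adjusted p = 5.43e-05). In deficient against supplemented Ttpa-/- cortex 3 of 14 were lower (6.75% of probes), the ceramide pathway genes Sptlc2 (-0.43, adjusted p = 0.0285) and Cers2 (-0.30, adjusted p = 0.0221) and Elovl1 (-0.41, adjusted p = 0.0169). In wild-type cerebellum on deficient diet 1 of 14 fell (3.38% of probes), Gal3st1 (-0.73, adjusted p = 0.0202), which sulfates the product of Ugt8a.

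Of 9 transcription factors of the lineage tested, 0 were down-regulated in deficient Ttpa-/- against wild-type cortex (9.49% of probes). There 1 of 9 rose, Tcf7l2 (0.36, adjusted p = 0.0498), a share near the 9.46% of all probes. In cerebellum 1 fell, Olig1 (-0.51, adjusted p = 0.0136), where 6.37% of probes did. On deficient diet Sox10 (-0.69, adjusted p = 0.0158) and Olig1 (-0.59, adjusted p = 0.0166) were down-regulated in wild-type cerebellum, 2 of 9 against 3.38% of probes. In the precursor and differentiation list, 1 of 12 rose in deficient Ttpa-/- against wild-type cortex (9.46% of probes), the proteoglycan Vcan (0.38, adjusted p = 0.0134), and 3 fell (9.49% of probes), the largest being Bcas1, a marker of newly formed oligodendrocytes (-0.51, adjusted p = 0.0422), and Itpr2 (-0.48, adjusted p = 0.000336). In cerebellum 3 of 11 rose (6.79% of probes), Itpr2 among them (0.25, adjusted p = 0.0473), and Bcas1 fell (-0.84, adjusted p = 0.00224). Gpr17, a receptor of committed precursors, fell with age in cortex (-0.84, adjusted p = 0.0321) and cerebellum (-0.84, adjusted p = 0.0149), where 1.39% and 4.08% of all probes fell. It is a single gene of this list, and no count of the list with age is given here.

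Among 14 axonal partners of myelin, 2 rose and 3 fell in deficient Ttpa-/- against wild-type cortex, where 9.46% of probes rose and 9.49% fell. The nodal sodium channel Scn8a was up-regulated (0.42, adjusted p = 0.00215), with Nfasc (0.29, adjusted p = 0.0389), and Cntn1 (-0.39, adjusted p = 0.00732), the potassium channel Kcna1 (-0.33, adjusted p = 0.0184) and the neurofilament Nefl (-0.32, adjusted p = 0.0319) were down-regulated. Scn8a also rose in deficient Ttpa-/- (0.46, adjusted p = 0.00122) and deficient wild-type cerebellum (0.34, adjusted p = 0.0318). The median of this list in cortex was 0.06, against -0.45 for the other myelin genes and -0.56 for the 8 genes.

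**Figure D5:**
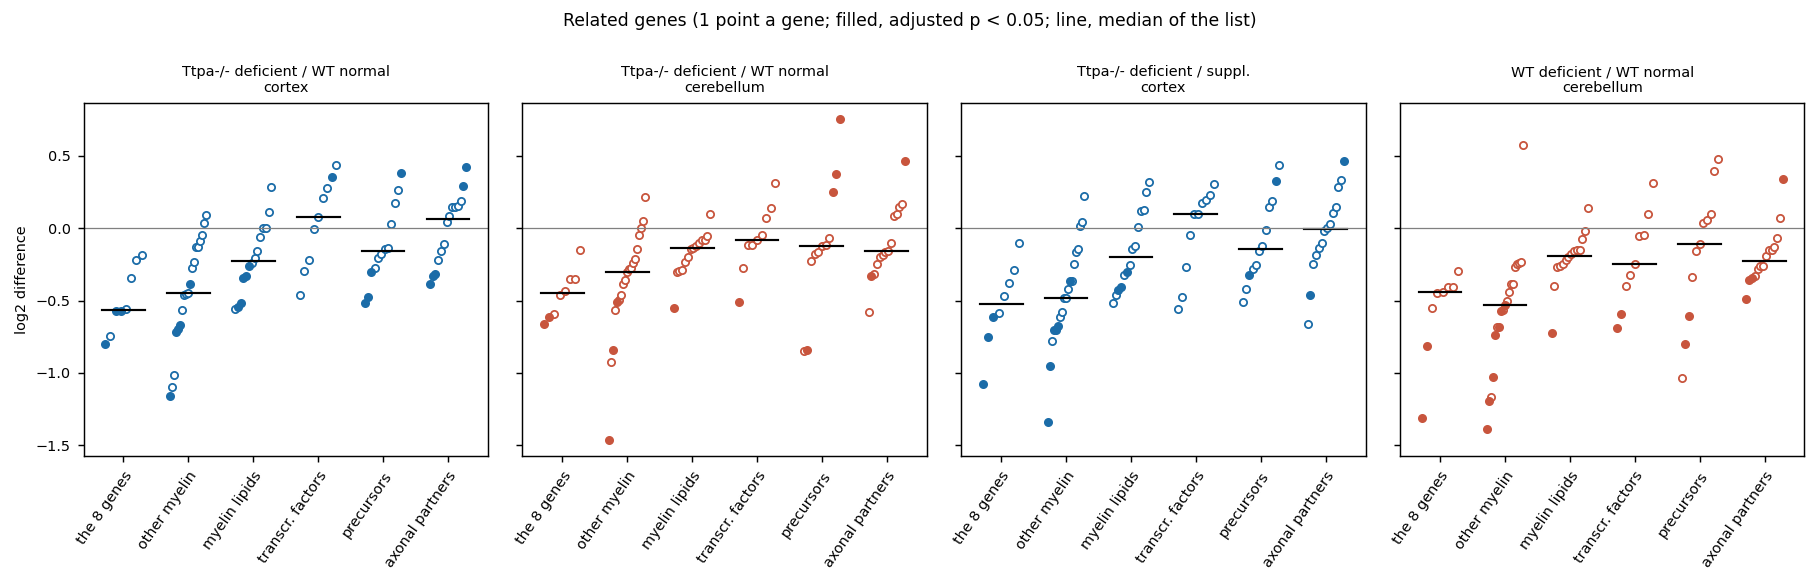
Log2 difference (y axis) of the 8 genes and of 5 related gene lists (x axis) in 4 comparisons (panels), 1 point per tested gene, filled where the limma adjusted p was below 0.05, with a line at the median of each list. In deficient Ttpa-/- against normally fed wild-type cortex the medians are -0.56 for the 8 genes, -0.45 for other myelin genes and 0.06 for axonal partners.

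Among the 5 genes whose levels followed the mean of the 8 most closely, each centred within its region over the 40 arrays, were Prr18 (r = 0.93), Ppp1r14a (r = 0.91), Tmem125 (r = 0.91) and Qdpr (r = 0.89), out of 17425 named genes. Of the 8 themselves, which form part of that mean, Mag (r = 0.96) and Mog (r = 0.93) were the closest and Ugt8a (r = 0.73) the farthest. These arrays share groups, slides and scaling, and the values are descriptions.

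Markers of other cells and tissues moved in some of the same comparisons. The 6 striatal markers summed to 20.7, 18.1, 21.2 and 21.2 times the 75th percentile in aged wild-type cortex and to 31.5, 32.4, 32.4 and 26.7 in deficient Ttpa-/- cortex. These sums did not overlap, and neither did 23.4% of single probes in either direction. Of the striatal markers 2 of 6 were up-regulated and none was below 0, where 9.46% of probes rose and 53.4% were below 0. The striatal sums reached 28.2 to 58.8 in deficient wild-type and 17.5 to 48.1 in supplemented Ttpa-/- cortex. The 7 astrocytic markers summed to 82.9 to 92.0 in aged wild-type and 70.8 to 80.1 in deficient Ttpa-/- cortex, with 2 of 7 down-regulated (9.49% of probes). The 6 neuronal markers came to 515 to 551 against 469 to 505, with 1 of 6 down-regulated (9.49% of probes). Of 5 endothelial markers 2 were higher (9.46% of probes) and 1 lower (9.49%), and no microglial, choroid plexus or blood marker passed, but single arrays stood apart. Replicate 4 of aged wild-type cortex, the lowest array of its group for 8 of 8 genes, had choroid plexus markers summing to 1.53 where the others had 5.71, 9.71 and 14, and replicate 1 of deficient Ttpa-/- cortex had 1.69 where the others had 12.5, 13 and 13.6. Replicate 4 of young wild-type cortex was also low, at 1.18 where the others had 11.6 to 14.8, and was the highest array of its group for 7 of 8 genes. In deficient against supplemented Ttpa-/- cortex 1 of 5 endothelial markers was higher (7.35% of probes) and 1 lower (6.75%). No striatal, astrocytic, neuronal, microglial, choroid plexus or blood marker passed there. The part of these markers in the cortical results was not tested.

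In wild-type cerebellum on deficient diet 1 of 2 Schwann cell markers tested was up-regulated (1.17% of probes). No neuronal, astrocytic, microglial, endothelial, choroid plexus, blood or striatal marker passed, and neuronal markers summed to 383 to 419 against 374 to 420 on normal diet. In deficient Ttpa-/- against wild-type cerebellum no neuronal, choroid plexus, blood or striatal marker passed. There 1 of 7 astrocytic markers rose and 1 fell, 1 of 7 microglial markers fell and 1 of 5 endothelial markers rose. Of all probes 6.79% rose and 6.37% fell in this comparison. Of the Schwann cell markers Pmp2 was above background on no array and the summed level in cerebellum was at most 0.25, so that the defining genes of peripheral myelin were at or near background there.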

How the data were processed

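RNA of cerebral cortex and cerebellum had been labelled with Cy3 and hybridized to Agilent one-colour mouse arrays. The deposited scanner files, made by the authors with Agilent Feature Extraction (10.7.3.1 per the file headers, 10.1.1.1 per the submitters' processing notes), hold background-corrected intensity values of each spot and 0 or 1 flags, recorded in the deposited files as other values, and place probes on mm9. The authors also deposited a table of normalized log2 values, which was used only as an alternative. With each probe centred on its mean over all arrays in both sets, these differed from the values computed here by a median of 0.00101 on the log2 scale. Their methods state global normalization, log2 values and a fold above 1.5.

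From the deposited intensity values, unflagged spots of a probe were averaged and divided by the 75th percentile of the array. That percentile was taken over all non-control probes with an unflagged spot on the array. Afterwards 92 probes without a usable spot on every array were dropped and 55589 kept. limma 3.58.1 in R 4.3.3 was fitted to 40 arrays with 10 group terms. A probe was tested where it cleared background on each of the 4 arrays of a compared group, p-values were adjusted by Benjamini-Hochberg, and an adjusted p below 0.05 was called. The methods' t-test, other scalings, filters, a replicate block and fits without 1 array were tried as alternatives. The fit was tested on simulated data. Genes named are the 8 genes, at most 3 rises and 3 falls of each related list, and the 5 genes closest to the mean of the 8, of which some are not reported here. Members and lists were chosen with earlier results of these data known.

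Same-numbered arrays deviated together within a region in 1 comparison, deficient against supplemented Ttpa-/- cortex (r of 0.10 to 0.45 over the 4 numbers); with the replicate block Mobp, Cldn11 and Mal were called there, as without it. Between regions r was above 0 for all 4 numbers in deficient (r of 0.14 to 0.44) and in supplemented Ttpa-/- mice (r of 0.04 to 0.34). With the block the interactions with region passed for 0 of the 8 genes and for the same 2 Mbp probes as without it. In deficient against supplemented Ttpa-/- cerebellum r was -0.02 to 0.64. Groups lie whole on slides, so that a slide block could not be fitted.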

Additional observations from a re-analysis of the deposited data

Results flagged for a closer look

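Single arrays stood apart from the other 3 of their group in 7 of 120 combinations of probe and group examined, by a gap above Dixon's 95% limit, and chance flags about 1 in 20 groups. For Cnp this was replicate 4 of deficient wild-type cortex, at 3.78 where the others had 2.79 to 2.94, replicate 1 of supplemented Ttpa-/- cortex, at 3.92 where the others had 3.19 to 3.31, and replicate 2 of supplemented Ttpa-/- cerebellum, at 4.16 where the others had 3.84 to 3.88. Mog stood out in replicate 2 of deficient Ttpa-/- cerebellum, at 0.65 where the others had 0.16 to 0.20. Ugt8a stood out in replicate 1 of young wild-type cerebellum, at 0.84 where the others had 1.43 to 1.52. Mbp probe A_52_P604195 stood out in replicate 4 of aged wild-type cerebellum, at 3.07 where the others had 2.90 to 2.92, and in replicate 4 of deficient wild-type cerebellum, at 3.14 where the others had 2.89 to 2.92.

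In 2 of 48 interaction tests the change differed between the regions. For Mbp probe A_52_P604195 the aging difference in cerebellum minus that in cortex was -0.66 on the log2 scale, and for Mbp probe A_55_P1992160 the difference of deficient from supplemented Ttpa-/- mice in cerebellum minus that in cortex was -0.86. Neither interaction passed on the brightest Mbp probe.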

How the results depend on the processing

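No called gene turned its direction under the 11 alternatives tried in each of 14 calls. The unfiltered fit, the replicate block, the compared groups alone, the fold rule and both t-tests keep the difference itself, so they could not turn it. The mean of all probes could change only Mbp and Mobp. The counts of the 8 genes that passed changed as follows. Changes of at most 1.5-fold between counts above 0 are left out unless stated. Scaling on array medians gave 0 for deficient Ttpa-/- against normally fed wild-type mice in cortex and cerebellum, against supplemented Ttpa-/- and deficient wild-type mice in cortex, and for the regions at 2 months, and 1 for deficient Ttpa-/- against deficient wild-type cerebellum. It moved the median of all probes by 0.11 for Ttpa-/- diets in cortex, -0.18 for wild-type diets in cerebellum and 0.18 for the genotypes on deficient diet in cerebellum, and the members' medians relative to it were -0.51, -0.43 and 0.09. For the interaction of wild-type diet with region the median of the 8 genes moved from -0.26 to -0.53. Quantile normalization gave 1 for the last genotype comparison and 1 and 2 for the regions at 2 and 29 months. Without the filter on dim probes, deficient Ttpa-/- against wild-type cerebellum had 0 and the wild-type diets in cerebellum 1. Cnp was then also lost in deficient Ttpa-/- against normally fed wild-type cortex (limma adjusted p = 0.0505). Fitting the compared groups alone gave 1 and 1 for deficient Ttpa-/- against normally fed wild-type cortex and cerebellum, 0 for the wild-type diets in cerebellum, the Ttpa-/- diets in cortex, the genotypes on deficient diet in cortex and the regions at 2 months, and 2 at 29 months. Asking a fold above 1.5 as well left 1 (Mal) for deficient Ttpa-/- against wild-type cortex and 0 for the regions at 2 months. With the mean of all probes of a gene, aging cortex had 1 (Mbp), deficient Ttpa-/- against wild-type cerebellum 1 and the regions at 29 months 2.

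The replicate block gave 2 for the genotypes on deficient diet in cortex and 1 in cerebellum, and changed no other count. The methods' t-test without adjustment gave 1 for aging cerebellum, and 2 and 5 for deficient Ttpa-/- against normally fed wild-type cortex and cerebellum. It gave 1 and 4 for the wild-type diets in cortex and cerebellum and 3 for supplemented Ttpa-/- against wild-type cerebellum. For the Ttpa-/- diets and the genotypes on deficient diet in cortex it gave 5 and 3, and for the regions 0 and 2. With adjustment it gave 1 for deficient and 1 for supplemented Ttpa-/- against wild-type cerebellum and 0 elsewhere. Fits without 1 array gave 1 to 5 and 0 to 2 for deficient Ttpa-/- against normally fed wild-type cortex and cerebellum, 0 to 2 and 0 to 3 for the wild-type diets, 0 to 3 for the Ttpa-/- diets in cortex, 0 to 2 and 0 to 1 for the genotypes on deficient diet, 0 to 3 and 1 to 2 for the regions, and 0 to 0 for the others, while the median for the regions at 29 months ran from -0.30 to 0.10. The causes of these changes were not tested. No block for the slide was possible, so that its part in the comparisons across slides cannot be told apart from the groups.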
